A study of Mus musculus with 6 samples.

Results

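The gene-desert places of COUP-TFII are 761 stretches of 300 bp on the mouse autosomes where a ChIP-seq peak was called although no protein-coding gene lies within 100 kb. They were chosen from 13190 autosomal places with a peak in the XX list, the XY list or both, and from 13538 places in the whole series. A place is a peak, with an XX and an XY peak that overlap by at least 1 bp counted once at the XX position. A place was taken when its centre lay more than 100 kb from every protein-coding gene body of the mm10 RefSeq annotation and more than 1 kb from both ends of every annotated gene, coding or not. The called positions therefore chose the members, and their distance from genes is a description and not a result. Whether a place was in both lists played no part in the choice.

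COUP-TFII was immunoprecipitated from mesonephroi of CD-1 mouse embryos at E14.5, pooled for each sample, with 2 samples of XX and 2 samples of XY embryos and 2 samples of input pooled from XX and XY. The labels name no mutation or treatment in any group. The mesonephros lies beside the fetal gonad and holds the Wolffian and Müllerian ducts in a bed of mesenchyme, so each sample mixes several cell types. The deposited data are 1 peak list per sex, with 11175 XX and 9846 XY peaks, no peak height and no list for input. The lists do not separate the replicates, so the values below come without a replicate spread, and sequencing depth is unknown. Tests compare the lists and not the sexes.

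COUP-TFII, the product of Nr2f2, is an orphan nuclear receptor of mesenchymal cells that binds repeats of the hexamer AGGTCA. Gene deserts are long stretches without coding genes, and in mouse and human many of them hold enhancers that act over long distances on developmental regulators at their borders. A peak in a desert cannot be tied to a gene by position alone, so the coding genes on both sides are named as neighbours and not as targets.

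The letters of the places themselves were not used here, apart from 1 place that coincided with an annotated promoter window. This place, chr12:71613397-71613696, was in both lists and lay in the desert between Dact1, a regulator of WNT signalling, and Daam1, a formin of planar cell polarity. It covered 267 of the 300 bases around an annotated start of the long non-coding RNA gene 9630002D21Rik (chromosome 12, 71577931 to 71718589), a start that lies well inside the outer ends of that gene. The window is shown because it gives the sequence under a gene-desert peak. It was taken from RefSeq (GRCm38.p6, chr12:71613364-71613663, plus strand), and the peak covers it from base 34 to its end. Capitals mark the match to the hexamer AGGTCA bound by COUP-TFII, read on the other strand as TGACCT.
9630002D21Rik promoter window: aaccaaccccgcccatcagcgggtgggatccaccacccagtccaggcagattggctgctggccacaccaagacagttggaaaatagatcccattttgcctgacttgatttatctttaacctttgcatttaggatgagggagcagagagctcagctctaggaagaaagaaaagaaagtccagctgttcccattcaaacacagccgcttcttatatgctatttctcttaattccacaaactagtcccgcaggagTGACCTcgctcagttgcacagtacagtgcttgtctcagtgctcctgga

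The window held 1 such match, at base 253, next to the annotated start at base 251. Either strand of AGGTCA was found in 16.3% of the 32851 promoter windows of the same length in that table, so a single match is common. The window had a GC content of 49.0% and 5 CpG dinucleotides, against medians of 52.7% and 7 over all windows. The match is a description of these letters and does not mark a bound site.

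Some deserts also hold microRNA genes. Of the 407 deserts between coding genes that held a gene-desert place, 43 (10.6%) also held at least 1 annotated microRNA gene, against 41 of the 985 deserts without a place (4.16%). Deserts with a place were also longer, with a median of 646 kb against 378 kb, and the part of length in the difference was not tested. Within 25 kb of a place lay 16 of the 107 microRNA genes in deserts with places, in 11 deserts. The part of desert sequence within 25 kb of a place was not measured, so these distances are a description only. The mature microRNAs below are a selection made after the places had been seen, and their genes lie in 4 of these 11 deserts. Sequences are from RefSeq (GRCm38.p6), and capitals mark the seed, bases 2 to 8, which pairs with target messenger RNAs.
mmu-miR-99a-5p: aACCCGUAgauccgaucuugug
mmu-miR-100-5p: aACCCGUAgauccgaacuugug
mmu-let-7c-5p: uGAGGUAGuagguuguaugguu
mmu-miR-125b-5p: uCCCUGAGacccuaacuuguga
mmu-miR-29a-3p: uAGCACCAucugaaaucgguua
mmu-miR-29b-3p: uAGCACCAuuugaaaucaguguu
mmu-miR-30a-5p: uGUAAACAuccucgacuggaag
mmu-miR-30c-5p: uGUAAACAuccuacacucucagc

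miR-99a-5p and miR-100-5p share a seed, as do miR-29a-3p with miR-29b-3p and miR-30a-5p with miR-30c-5p. The miR-99a, let-7c and miR-125b-2 genes lie in the desert between Usp25, a deubiquitinase gene, and Cxadr, a gene of tight junctions (chromosome 16, 77116784 to 78301225). The miR-100, let-7a-2 and miR-125b-1 genes lie in the desert between Ubash3b and the predicted gene Gm40514 (chromosome 9, 41161693 to 41906022), with Sorl1 the next gene with a full name. Both deserts were among the 21 with 5 or more places.

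The Usp25 to Cxadr desert held 7 places, of which 2 were shared, 2 XX-only and 3 XY-only. The shared place at 77636424 to 77636723 lay 9.70 kb from the miR-125b-2 hairpin, 36.8 kb from that of let-7c-1 and 37.6 kb from that of miR-99a. Another shared place (77499894 to 77500193) and an XY-only place (77399794 to 77400093) lay inside Mir99ahg, the long non-coding RNA gene at 77329328 to 77558428. The Ubash3b to Gm40514 desert held 5 places, of which 2 were shared, 2 XX-only and 1 XY-only. An XX-only place at 41513686 to 41513985 lay inside Mir100hg, 17.6 kb from the miR-100 hairpin, 22.9 kb from let-7a-2 and 68.1 kb from miR-125b-1. The place nearest to these microRNA genes was thus shared in the chromosome 16 desert, at 9.70 to 37.6 kb. In the chromosome 9 desert it was XX-only, at 17.6 to 68.1 kb. Whether these distances differ from the usual spacing of places was not tested. The miR-29a and miR-29b-1 genes, between Klf14 and Mkln1 on chromosome 6, had a shared place 13.1 kb and 12.8 kb away. The miR-30a and miR-30c-2 genes on chromosome 1 had a shared place 15.4 kb and 34.8 kb away. A shared place also lay 11.1 to 28.7 kb from the miR-216 and miR-217 genes between Ccdc85a and Efemp1 on chromosome 11, and another 21.2 kb and 24.98 kb from the miR-30d and miR-30b genes between Zfat and Khdrbs3 on chromosome 15. XX-only places lay 1.66 kb from the miR-466f-4 gene between Adamts16 and Irx1 and 2.11 kb from that of miR-145b between Mc2r and Tcf4. Others lay 4.90 kb from Gm51282, the gene of miR-12179-5p, 7.11 kb from that of miR-6344 and 18.8 kb from that of miR-378d. The miR-17 to miR-92 cluster between Slitrk5 and Gpc5 on chromosome 14 lay 91.2 to 91.9 kb from an XX-only place. The imprinted microRNA cluster between Rtl1 and Dio3 on chromosome 12 had 2 shared places in its desert. One of them lay 195 kb from the closest hairpin, that of miR-1247. The other hairpins, from miR-341 to miR-3072, lay 329.9 to 466.3 kb from their nearest place.

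**Figure D1:**
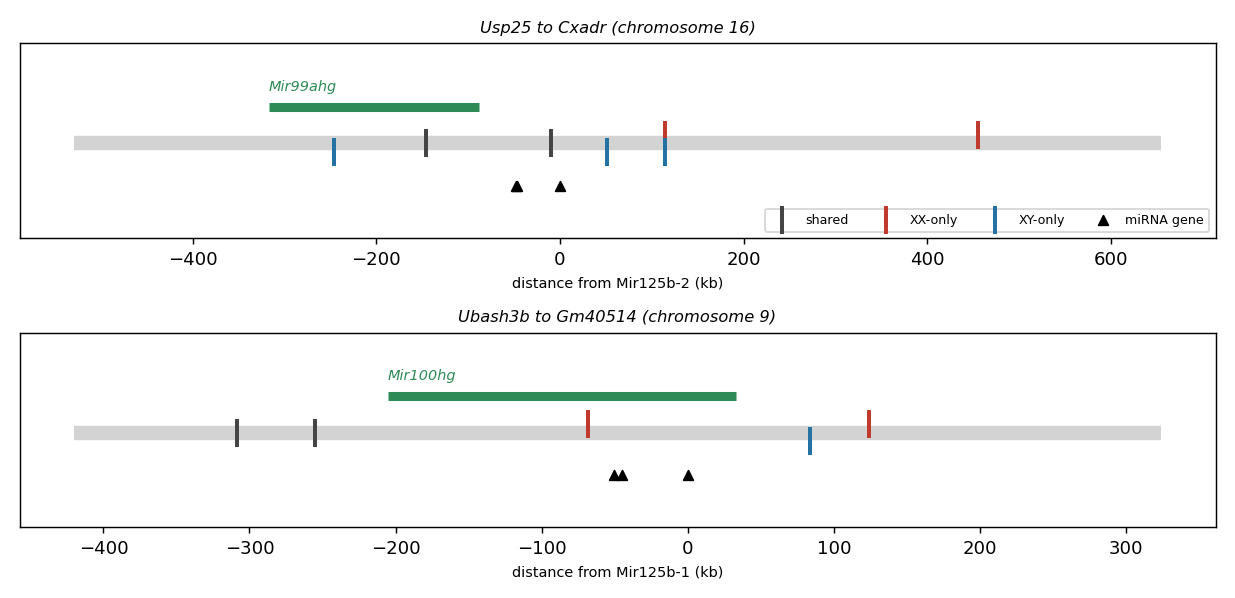
Positions of gene-desert places (vertical marks), microRNA genes (triangles) and the long non-coding RNA genes Mir99ahg and Mir100hg (green bars) in 2 deserts (grey bars), as distance in kb from the miR-125b gene of each desert. XX-only marks are drawn slightly higher and XY-only marks slightly lower so that neighbours stay visible. The Usp25 to Cxadr desert has 7 places and the Ubash3b to Gm40514 desert has 5, and in each the microRNA genes lie among them.

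The first comparison asks how often the 2 lists had the same gene-desert places. Of the 761, 292 were in both lists (38.4%, exact 95% interval 34.9 to 41.9), against 55.6% of all autosomal places. A further 353 were XX-only (46.4%, 42.8 to 50, against 26.8% of all autosomal places) and 116 were XY-only (15.2%, 12.8 to 18, against 17.5%). The XX list thus had 645 gene-desert peaks and the XY list 408. Shared places made up 45.3% of the XX and 71.6% of the XY gene-desert peaks. At gene ends these values were 78.2% and 78.1%, and inside coding genes 56.8% and 72.1%. For other places outside genes they were 48.7% and 72.3%. The XY value of gene deserts was thus close to that of the last 2 classes.

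Gene-desert places were in both lists less often than places at gene ends, where 4961 of 7737 (64.1%) were shared (odds ratio 0.348, 95% interval 0.298 to 0.407, two-sided Fisher's exact test, adjusted p = 5.91e-42). They were also shared less often than places inside coding genes and over 1 kb from ends, where 1359 of 2919 (46.6%) were shared (odds ratio 0.715, 0.605 to 0.844, adjusted p = 0.000101 by Fisher's exact test). Against the 1773 places outside genes but within 100 kb, of which 728 (41.1%) were shared, the difference did not pass the threshold of 0.05 (odds ratio 0.894, 0.748 to 1.07, adjusted p = 0.259 by Fisher's exact test). That result depended on the limits used. With deserts starting at 200 kb the odds ratio in the same exact test was 0.709 (adjusted p = 0.00476), and with the ends of non-coding genes kept in it was 0.824 (adjusted p = 0.0250). Over the 12 alternative settings it ran from 0.596 to 0.932, with adjusted p from 0.00476 to 0.485.

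Among gene-desert places in 1 list only, XX-only places made up 75.3% (353 of 469, exact 95% interval 71.1 to 79.1). The share was 49.9% at gene ends (1386 of 2776; odds ratio 3.05, 2.43 to 3.85, adjusted p = 7.16e-25 by Fisher's exact test). It was 66.3% inside genes (1034 of 1560; odds ratio 1.55, 1.22 to 1.98, adjusted p = 0.000343 by Fisher's exact test). This last call ended with deserts starting at 200 kb (odds ratio 1.33, adjusted p = 0.0729) or 500 kb (1.45, adjusted p = 0.365), both by Fisher's exact test. Nearer places outside genes had 73.3% (766 of 1045), and the difference did not pass (odds ratio 1.11, 0.857 to 1.44, adjusted p = 0.448 by Fisher's exact test). Over the 12 alternative settings this odds ratio lay on both sides of 1, from 0.908 to 1.29. The XX list is the longer one, and XX-only places also outnumber XY-only places over all autosomes. All p-values here were adjusted by Benjamini-Hochberg over these 6 tests. The tests count places as units, although places in 1 desert are not independent. Whether a place missing from a list was unbound or below the peak caller's threshold cannot be told apart.

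**Figure D2:**
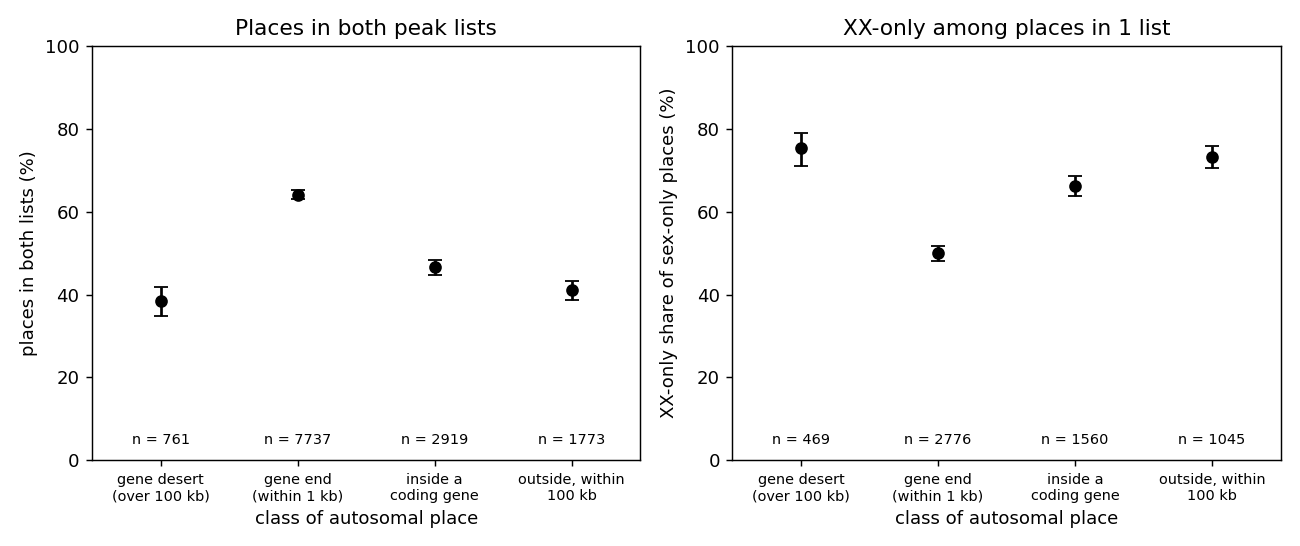
Share of places in both peak lists (left) and XX-only share of places in 1 list (right), in percent, for gene-desert places and 3 other classes of autosomal places; points are shares, bars are exact 95% intervals, and n is the number of places. Gene-desert places have 38.4% in both lists and 75.3% XX-only, close to the 41.1% and 73.3% of other places outside genes and apart from the 64.1% and 49.9% of gene ends.

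On each of the 19 autosomes, XX-only gene-desert places outnumbered XY-only ones. The XX share of sex-only places ran from 57.9% on chromosome 16 (11 XX-only, 8 XY-only) to 86.7% on chromosome 18 (26 and 4). Some shares rest on few places, such as 5 and 1 on chromosome 19. Over all autosomal places there were also more XX-only (3539) than XY-only places (2311), and nearer places outside genes had 73.3% XX-only. The shared percentage ran from 26.9% on chromosome 11 to 50% on chromosomes 15 and 19, with a median of 36.8%. Where a place was in both lists, the XX and XY centres lay a median of 34.0 bp apart, against 33.0 bp at gene ends and inside genes and 30.5 bp for nearer places outside genes. Within 50 bp lay 187 of the 292 shared pairs (64.0%). Some sex-only places nearly met: 6 pairs of an XX-only and an XY-only place lay within 1 kb of each other. In the desert between Ncam1, a cell adhesion gene, and Plet1, the XX-only place 49980872 to 49981171 and the XY-only place 49980556 to 49980855 on chromosome 9 were 16 bp apart. In the Usp25 to Cxadr desert such a pair was 19 bp apart, and in the desert between Flrt2 and Galc 46 bp apart. With gaps of up to 1 kb counted as shared, 39.8% of gene-desert places were shared. The shared odds ratio was then 0.245 against gene ends and 0.627 against places inside genes, compared with 0.348 and 0.715 by overlap. Near misses were thus not particular to gene deserts.

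The places thinned out with distance from coding genes. Gene deserts by this rule hold 5.77% of the places and 673.4 Mb. That is 27.6% of the autosomal sequence between the first and the last annotated gene of each chromosome. There were 1.13 places per Mb in gene deserts, against 50.2 at gene ends, 3.17 inside genes and 2.56 elsewhere outside genes. Within the deserts the density was 1.96 places per Mb between 100 and 200 kb from a coding gene, 1.18 between 200 and 500 kb and 0.345 beyond 500 kb. Nearer to genes it was 2.61 places per Mb between 1 and 10 kb and 2.70 between 10 and 50 kb, and 393 places lay in the 175.4 Mb between 50 and 100 kb. The density was thus similar between 1 and 50 kb and lower in each range beyond, by values that were not tested.

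Shared places thinned out too, with 0.847 per Mb between 100 and 200 kb, 0.407 between 200 and 500 kb and 0.0997 beyond 500 kb. XX-only places had 0.873, 0.554 and 0.181 per Mb in the same ranges, and XY-only places 0.236, 0.217 and 0.0635. The shared percentage was 43.3% between 100 and 200 kb (165 of 381, exact 95% interval 38.3 to 48.4), 34.5% between 200 and 500 kb (105 of 304, 29.2 to 40.2) and 28.95% beyond 500 kb (22 of 76, 19.1 to 40.5). Nearer to genes it was 43.2% between 1 and 10 kb, 39.9% between 10 and 50 kb and 41.0% between 50 and 100 kb. The range from 100 to 200 kb was thus not below any nearer one. The median distance to the nearest coding gene was 177 kb for shared, 205 kb for XX-only and 244 kb for XY-only places. These bins overlap in their intervals and were not tested against each other.

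**Figure D3:**
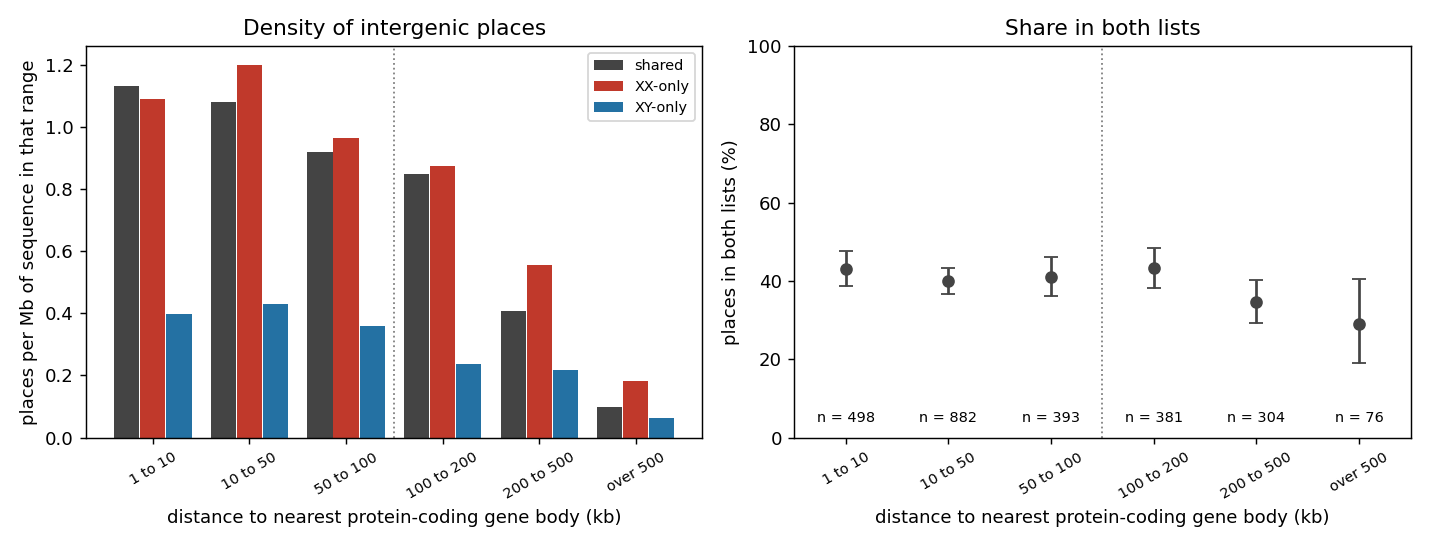
Left, places per Mb of sequence outside genes by distance to the nearest protein-coding gene body (kb), for shared, XX-only and XY-only places; right, percent of those places in both lists with exact 95% intervals and n. Gene-desert places lie right of the dotted line, where the density of all 3 kinds falls and the shared percentage is 43.3, 34.5 and 28.95 in turn.

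The limit of 100 kb cuts through a continuous range. The 5 places just inside it lay 100.04 to 100.32 kb from a coding gene. Of these, 3 were shared and 2 XX-only. Those between Cacng3 and Rbbp6, Ptpn20 and Gdf10, and Tpd52 and Zbtb10 were shared, and that between Bambi and Lyzl1 was XX-only. The 5 just outside it lay 99.63 to 99.94 kb away, between Hmgn3 and Lca5, Cbln4 and Mc3r, Ptger4 and Dab2, Tcl1 and D430019H16Rik, and Cdc42ep3 and Rmdn2. Of these also 3 were shared and 2 XX-only.

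At the other end, 9 places lay more than 1 Mb from any coding gene. The farthest was a shared place on chromosome 18 (28077672 to 28077971), 2188 kb from the nearer of Celf4, an RNA-binding protein gene, and Pik3c3, which encodes a lipid kinase of autophagy. The next were an XX-only place between Igfbp7 and Adgrl3 on chromosome 5 (79059857 to 79060156), 1652 kb away, and a shared place between Dsel and Cntnap5a on chromosome 1 (114039392 to 114039691), 1645 kb away. An XX-only place lay 1505 kb away between Stim2 and Pcdh7. The desert between Gm40892 and Flrt2, a gene of cell adhesion and axon guidance, held 3 of the 10 farthest places, 1 shared and 2 XX-only, at 995.7 to 1359.5 kb. Single XX-only places between Khdrbs3 and Fam135b, Nudt12 and Efna5, and Lcorl and Slit2 completed the 10, which were 3 shared and 7 XX-only.

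The second question is which genes border the deserts with COUP-TFII places. Of 1392 autosomal gaps of over 200 kb between coding genes, the length needed for a place by this rule, 407 (29.2%) held at least 1 place, and 3 more places lay past the last coding gene of a chromosome. Places were found in 19.1% of gaps of up to 500 kb, 43.3% of gaps of 500 kb to 1 Mb and 41.9% of longer gaps. A single place was found in 237 gaps, 84 held 2 and 86 held 3 or more. The 10 deserts with most places held 74 of them (9.72%). Of the 170 deserts with 2 or more places, 20 held shared places alone, 27 XX-only places alone and 2 XY-only places alone. Over all gene-desert places 38.4% were shared, 46.4% XX-only and 15.2% XY-only. How many such deserts these shares alone would give was not computed, so the counts are a description only. Another place lay within 10 kb for 80 members and within 50 kb for 227 (29.8%) of the 761.

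The desert with most places lay between Med13l, which encodes a subunit of the Mediator complex, and Tbx3, a T-box transcription factor gene of limb, heart and mammary development (chromosome 5, 118765439 to 119670533). Its 9 places were 5 shared and 4 XX-only, with none XY-only. They lay 106.6 to 702.6 kb from Tbx3, and the nearest to it, at 119563829 to 119564128, was shared. The desert between Tnp1, a gene of sperm chromatin, and Tns1, which encodes the focal adhesion protein tensin (chromosome 1, 73015900 to 73910231), held 8 places, of which 4 were shared, 3 XX-only and 1 XY-only. The 4 nearest to Tns1 lay inside the long non-coding RNA gene 6030407O03Rik.

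Between Cdh11, the cadherin gene of mesenchyme, and Cdh5, the cadherin gene of endothelium (chromosome 8, 102785494 to 104101612), there were 2 shared, 4 XX-only and 2 XY-only places. The nearest to Cdh11 lay 415.0 kb and the nearest to Cdh5 206.3 kb away. The desert between Zfp608, a zinc finger gene, and Gramd3 (chromosome 18, 54992592 to 56387484) had 8 places, of which 7 were XX-only and 1 shared. The neighbouring gap between Csnk1g3 and Zfp608 had 2 more XX-only places. No XY-only place was found on either side of Zfp608. The shared one was the nearest to Zfp608 of its desert, at 141.3 kb.

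Mn1, a gene of a transcriptional co-regulator, and Cryba4, a lens crystallin gene, bordered 4 shared, 2 XX-only and 1 XY-only place. The desert between the predicted gene Gm5148 and Ankrd50 held 3 shared, 2 XX-only and 2 XY-only places, 151.2 to 324.9 kb from Gm5148. The next fully named gene beyond Gm5148 is Spry1, an inhibitor of FGF signalling. Of these places 4 lay inside the long non-coding RNA gene Gm20755 (chromosome 3, 37898813 to 37992728).

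Pik3r1, which encodes the regulatory subunit of PI 3-kinase, had places in the deserts on both sides, 12 in all with 2 shared, 5 XX-only and 5 XY-only. The desert between Slc30a5, a zinc transporter gene, and Pik3r1 held 4 of the XY-only places, the most of any desert. The desert between Gas1, a hedgehog co-receptor gene, and Dapk1, a kinase gene of cell death (chromosome 13, 60177536 to 60601722), had 5 shared places and 1 XY-only place in 424.2 kb. Of the shared places 3 lay 109.5 to 141.2 kb from Gas1, and the other 2 lay inside the long non-coding RNA gene A530001N23Rik, 113.1 and 103.9 kb from Dapk1. The gap on the other side of Gas1, up to Tut7, had 1 XY-only place.

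**Figure D4:**
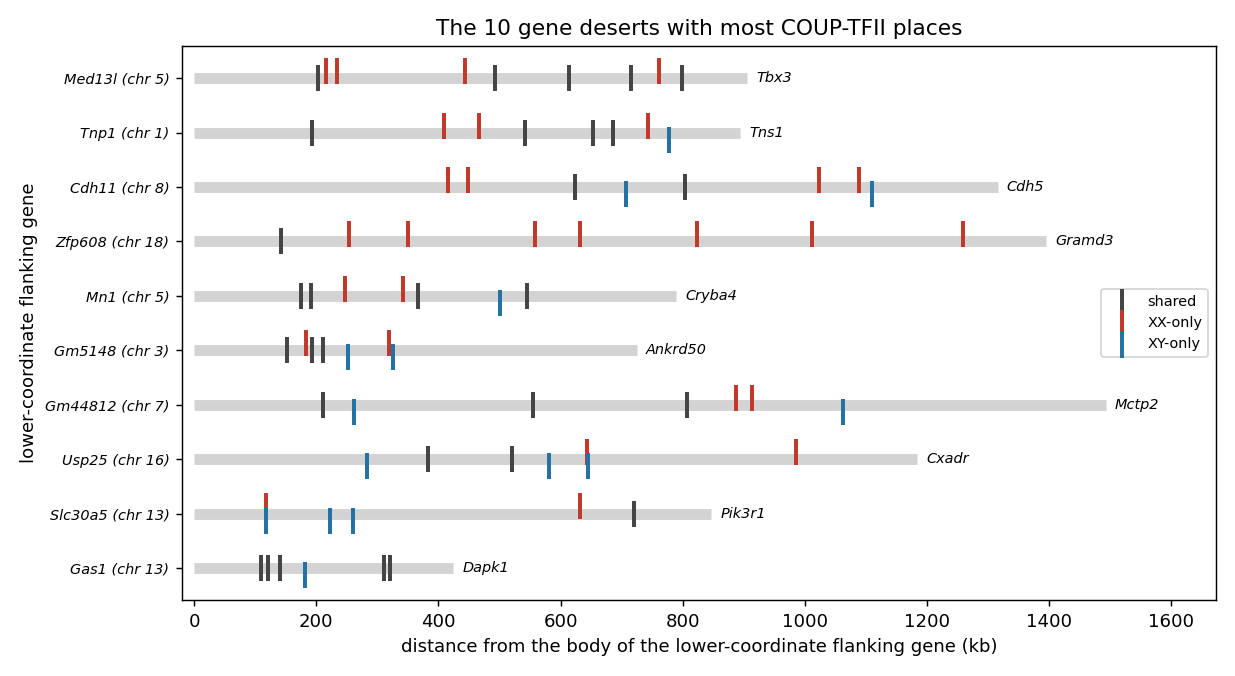
The 10 deserts with most places, each drawn as a grey bar from the body of its lower-coordinate flanking gene (left label) to that of the other (right label), with distance in kb; marks are shared, XX-only (slightly raised) and XY-only (slightly lowered) places. The Med13l to Tbx3 desert has 5 shared and 4 XX-only places, the Zfp608 to Gramd3 desert 7 XX-only and 1 shared, and the Gas1 to Dapk1 desert 5 shared and 1 XY-only.

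Other deserts are named here for the makeup of their places. Among all gene-desert places 38.4% were shared, 46.4% XX-only and 15.2% XY-only. Gata6, a GATA factor gene of mesoderm and endoderm, and Rbbp8, a DNA repair gene, bordered 5 places, all shared, at 119.8 to 332.6 kb from Gata6. The 4 places between Dact1 and Daam1 were also all shared, and 2 of them lay inside 9630002D21Rik. The 6 places between Lcorl and Slit2, the gene of a guidance ligand, were 4 XX-only and 2 shared. The 6 between Cyp7b1, which encodes an oxysterol hydroxylase, and Armc1 were 4 XX-only, 1 shared and 1 XY-only. Between Plpp3, a lipid phosphatase gene, and Usp24 there were 1 shared, 1 XX-only and 3 XY-only places. No single desert was tested.

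The genes of COUP-TFII and of its relative COUP-TFI both border long deserts. Nr2f2 had 3 places in the gap of 1603 kb towards Arrdc4 (chromosome 7, 68749239 to 70351945), of which 2 were shared and 1 XX-only. The nearest of them, at 70214203 to 70214502, was shared and lay 137.6 kb from Nr2f2. The count of 3 became 1 when places within 2.5 kb of a gene end were left out, and also with deserts starting at 200 kb or 500 kb. On its other side the predicted coding gene Gm44812 intervenes. Beyond it, up to Mctp2 (70584962 to 72077826), lay 7 places, of which 3 were shared, 2 XX-only and 2 XY-only. Nr2f1 had 3 places in the gap of 2685 kb towards Arrdc3 (chromosome 13, 78198874 to 80883383), 2 XX-only and 1 XY-only with none shared, and all lay at 831.2 to 942.7 kb from Nr2f1.

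Flanking genes were grouped into 7 families by symbol. Developmental transcription factors, which are 2.17% of coding genes, bordered 188 of the 1392 gaps (13.5%). Of these 188 gaps 41.5% held a place, against 29.2% of all gaps, and 165 places lay beside such a gene at 1.90 per Mb of desert, against 1.12 over all gaps. These gaps were longer than all gaps, with a median of 540 kb against 424 kb, and longer gaps held a place more often up to 1 Mb. Tbx3 led with 9 places, followed by Meis1, a homeobox gene of mesenchyme, with 6 (1 shared, 3 XX-only and 2 XY-only). Gata6 had 5 shared places, and Irx1, an Iroquois homeobox gene, had 2 shared and 3 XX-only places.

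Genes of signalling bordered 88 gaps, of which 40.9% held a place, with 61 places at 1.79 per Mb. Gas1 had 7, and Acvr2a, an activin receptor gene, Bmp4, a BMP ligand gene, and the chemokine gene Cxcl12 had 3 each. Of these, the places at Cxcl12 were XX-only, Acvr2a had 1 shared and 2 XX-only, and Bmp4 had 1 of each kind. Matrix proteins and their proteases bordered 44 gaps, of which 43.2% held a place, with 35 places at 1.65 per Mb. Adamts16 and Adamts5, genes of secreted metalloproteases, had 2 shared and 2 XX-only places each. Adamts20 had 2 shared and 1 XX-only, and Gpc5, a glypican gene, had 1 shared and 2 XX-only.

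Adhesion and guidance genes bordered longer gaps, with a median of 946 kb against 424 kb over all, and 29.5% of their 139 gaps held a place. Their density was lower, with 93 places at 0.550 per Mb, and 26.9% of these were shared, against 38.1% over all gaps. Of the 93 places 29 lay beyond 500 kb, against 76 of all 761 gene-desert places. Beyond 500 kb 28.95% of all gene-desert places were shared, and the part of distance in the difference was not tested. Flrt2 led with 10 (2 shared, 6 XX-only and 2 XY-only), then Cdh11 and Cdh5 with the 8 places of their common desert, and Adgrl2, a latrophilin gene, with 5 XX-only and 1 XY-only. Ion channels and transmitter receptors had 20 places at 0.480 per Mb, with 2 each at Adra2a, Grm7, Kcnd3 and Kcnn2. Receptors of smell and taste, which are 6.94% of coding genes, bordered 21 gaps, of which 2 held a place, next to Tas2r119 and Tas2r134. Predicted or unnamed genes had 98 places at 0.886 per Mb, led by Gm44812 and Gm5148 with 7 each, Gm40892 with 6 and Gm40514 with 5. In 690 of the 1392 gaps (49.6%) neither neighbour was in a family, and these gaps held 335 places at 1.29 per Mb.

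Because density fell with distance, the families were also set side by side within ranges of distance. The ranges and the gaps above do not cover quite the same places and sequence. Signalling genes had 40, 18 and 4 places in the 3 ranges, against 61 in gaps. Between 100 and 200 kb from the nearest coding gene there were 2.51 places per Mb beside transcription factors, 3.20 beside signalling genes, 2.76 beside matrix genes, 1.29 beside adhesion genes and 1.04 beside ion channels. Between 200 and 500 kb these values were 2.06, 1.38, 1.69, 0.671 and 0.413 in the same order. Beyond 500 kb they were 0.862 (15 places), 0.513 (4), 0.390 (2) and 0.313 (29). Ion channel deserts had 0 places in 11.4 Mb beyond 500 kb, which allows up to 3 places or 0.263 per Mb. Transcription factor, signalling and matrix deserts thus had more places per Mb than adhesion and ion channel deserts in each range. Over all gene deserts the values were 1.96, 1.18 and 0.345 per Mb, and beside predicted or unnamed genes 1.48, 0.919 and 0.362. The matrix value beyond 500 kb was close to that over all gene deserts. These densities were not tested, and the signalling and matrix values beyond 500 kb rest on 4 and 2 places. A gap with neighbours in 2 families counts in both, and no expression data were used to say which of these genes are active in the mesonephros.

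**Figure D5:**
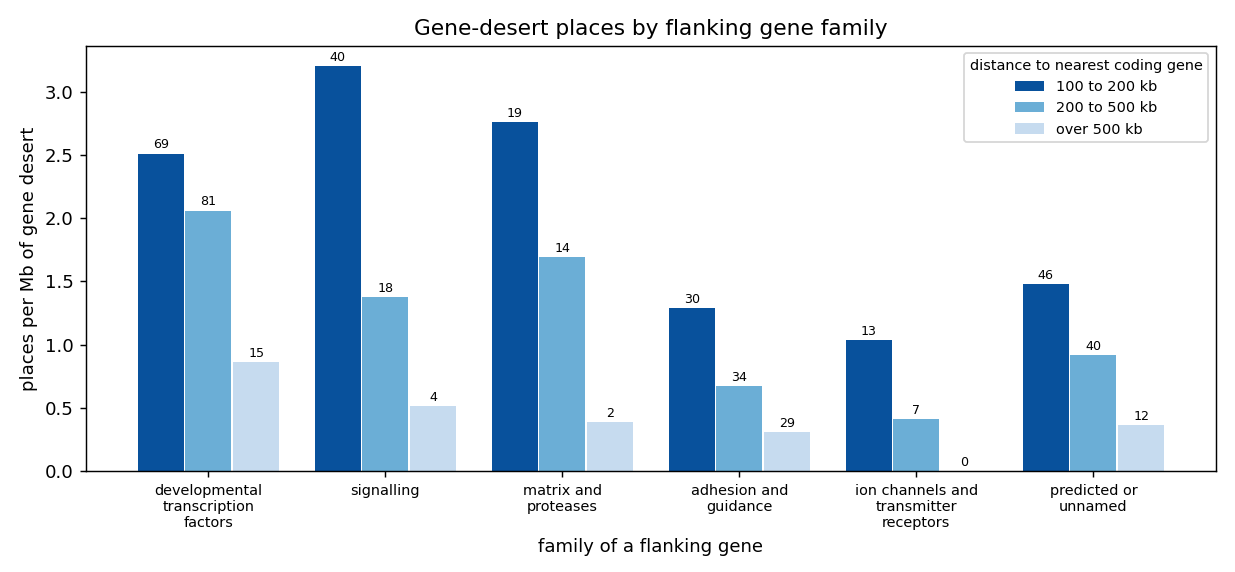
Gene-desert places per Mb of desert by the family of a flanking gene, in 3 ranges of distance to the nearest protein-coding gene; the number above each bar is the count of places. Transcription factor deserts have 2.51, 2.06 and 0.862 places per Mb with rising distance, and adhesion deserts 1.29, 0.671 and 0.313.

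A share of the places lay inside non-coding genes. Of the 761, 165 (21.7%, exact 95% interval 18.8 to 24.8) lay within the body of an annotated non-coding gene, and 161 of these within a long non-coding RNA gene. Such bodies cover 11.2% of gene-desert positions, measured every 500 bp. The percentage was 22.6 for shared (66 of 292, 17.9 to 27.8), 21.5 for XX-only (76 of 353, 17.4 to 26.2) and 19.8 for XY-only places (23 of 116, 13.0 to 28.2), and these intervals overlap. The median distance to the nearest end of any annotated gene was 28.2 kb, and 170 places lay within 10 kb of one. 6030407O03Rik and Gm20755 had 4 places each, the most for a non-coding gene. Pvt1, a long non-coding RNA gene beside Myc, held 1 XX-only place of the 4 XX-only places between Myc and Gsdmc, and was named after its place had been seen.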

How the data were processed

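COUP-TFII ChIP-seq peaks from XX and XY mesonephroi of mouse embryos at E14.5 were used as deposited by the authors, in 1 list per sex that the labels name under both replicates. The lists hold chromosome, start and end of peaks that are all 300 bp wide, with no score. The submitters' processing notes name mm10 and, without roles, HOMER 4.10.3, Bowtie 1.2, bedtools 2.24.0, Picard and cutadapt. The peak threshold was not given in these sources, nor was the way replicates were combined. The labels' extraction text names another factor and another tissue than the titles, the antibody and the study design, which were followed here. Input was not analysed here.

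Positions are counted from 1. Genes were the 49943 RefSeq genes of GRCm38.p6, the assembly of mm10, on the autosomes, X and Y, of which 21887 are protein-coding; the table gives no strand, exons or introns, so these were not used. The genome in each class was measured every 500 bp from the first to the last annotated gene of each autosome. Assembly gaps and sequence that reads cannot be mapped to were not taken out. Intervals are exact (Clopper-Pearson), cover counting error only, and were computed with SciPy 1.17.1 in Python 3.11.15. Overlap and class calls were tested on simulated data. Most named deserts follow a rule: the 10 with most places, the 5 with most XX-only and the 5 with most XY-only, the 10 farthest places, the 5 on each side of the limit, up to 4 genes per family, Nr2f1 and Nr2f2. Deserts named for a microRNA gene, a close pair, a promoter window, shared places alone or Pvt1 were chosen after their values were seen. The flanking genes of 1 place at the limit are not reported here. The members, families and rules were chosen with earlier results of these data known. A planned motif search within all places was not done, since no genome sequence was used. MicroRNAs and promoter windows were matched by gene ID, and 98 of the 107 microRNA genes in deserts with places had a mature sequence.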

Additional observations from a re-analysis of the deposited data

Results flagged for a closer look

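The X chromosome lay outside the rule, which takes autosomal places. By the same distances it had 14 gene-desert places among its 339 places, which the comparisons do not use. Of the 14, 3 were shared, 9 XX-only and 2 XY-only.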

How the results depend on the processing

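No paired analysis was possible because each sex has 1 peak list over its 2 replicates; for the same reason no replicate could be left out. The number of gene-desert places was 761, and 1154, 380 and 76 with limits of 50, 200 and 500 kb, in 642, 197 and 42 deserts against 407; counting the first place of each desert left 410. The shared percentage of 38.4 became 32.4 when centres had to lie within 100 bp, 33.4 with a limit of 200 kb and 28.95 with 500 kb. Against places inside genes, the XX-only odds ratio no longer passed at 200 kb (1.33) or 500 kb (1.45). Against nearer places outside genes, the shared odds ratio passed at 200 kb (0.709) and with ends of non-coding genes kept in (0.824). The cause was not tested, except that a higher limit leaves fewer places by construction. The other 104 summary values over 12 alternatives, of which 2 were added after the data had been seen (first place per desert, and leaving out the 10 deserts with most places), kept their side of the threshold (odds ratios), lay within the main value's exact interval (percentages) or stayed within 1.5 times the main value (counts). Among these the XX-only odds ratio against nearer places outside genes, which did not pass in any setting, turned from 1.11 to 0.908 at 200 kb. Of the place counts of single named deserts 17 moved by over 1.5 times, all but 1 of them at limits of 200 or 500 kb; the exception was the Arrdc4 to Nr2f2 desert, with 1 place against 3 when 2.5 kb around gene ends were left out. The lists' depth is unknown, which limits every count of sex-only places.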

Other observations

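Gene-desert places were spread unevenly over chromosomes. Chromosome 13 had 71 of them in 33.0 Mb of gene desert, or 2.15 per Mb, followed by chromosome 18 with 1.60 per Mb. Chromosomes 14 and 15 had the lowest density, 0.771 per Mb each. For nearer places outside genes the density was 3.01 per Mb on chromosome 13, 2.52 on chromosome 18, 2.39 on chromosome 14 and 3.04 on chromosome 15, so the order of chromosomes was not the same there. The 71 places of chromosome 13 lay in 31 deserts, among them those beside Gas1, Pik3r1, Irx1 and Nr2f1.

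The 5 longest gaps without any gene-desert place, named after their values were seen, lay between Pcdh20 and Pcdh9 (4542 kb) and between Olfm4 and Pcdh17 (4420 kb) on chromosome 14, and between Cntnap5b and Cdh20 (4278 kb) on chromosome 1. The other two lay between Lrrc4c and Iftap (3929 kb) on chromosome 2 and between Pcdh7 and G6pd2 (3676 kb) on chromosome 5. Pcdh7 had an XX-only place in the gap on its other side, towards Stim2.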
